A study of Mus musculus with 12 samples.

Results

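The 6 genes that encode the DNA methyltransferases and the TET enzymes of the mouse were followed in resting splenic B cells and after 3 h of activation. They are Dnmt1, Dnmt3a, Dnmt3b, Tet1, Tet2 and Tet3, chosen by symbol. Each symbol matched a single identifier among the 37991 genes of the count table, so all 6 members were found. All 6 passed the filter on low counts, which left 13538 genes for testing. Tet1 passed only through its resting samples, since its 3-h samples held 1 to 11 counts. Had it been as low at rest, it would not have been tested.

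The Runx1 c-k/o mice carried a Runx1 allele with LoxP sites around exon 4 and a CD23-iCre transgene, whose expression starts at the transitional stage of B cell development. The control mice carried the CD23-iCre transgene without the deletion and are called Cre-only, so Cre was present in every sample. Mice were 8 weeks old, and B cells were purified from spleen by negative selection. RNA was taken from resting cells (0 h) or after 3 h with anti-IgM, which engages the B cell receptor, and IL-4, a cytokine made by helper T cells. Each of the 4 groups held 3 samples numbered as replicates, 12 in all. The labels do not say that each came from its own mouse, so p-values measure the spread between these samples.

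DNA methyltransferases place methyl groups on cytosines, mostly where a cytosine precedes a guanine (a CG site). DNMT1 is the maintenance enzyme, which copies the pattern of the parent strand after replication with the help of UHRF1, while DNMT3A and DNMT3B are the de novo enzymes, which methylate sites that carried no mark. TET enzymes work in the other direction: they oxidize 5-methylcytosine to 5-hydroxymethylcytosine and further, using oxygen, iron and 2-oxoglutarate, and the glycosylase TDG then removes the most oxidized forms for base excision repair. In B cells, TET2 and TET3 are known to act at enhancers, and TET2 and DNMT3A are known tumour suppressors of the blood lineages.

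Members passed the test on activation, and none passed it by genotype. Dnmt3b rose 3.60-fold and Tet2 rose 2.93-fold in Cre-only cells within 3 h, while Tet1 fell to a few counts per library. Dnmt1, Dnmt3a and Tet3 passed no test in Cre-only cells. Between genotypes 0 of the 6 members passed the test at rest, where 1.49% of all tested genes did, and 0 of 6 at 3 h, where 2.77% did. On activation 3 of 6 members were called in Cre-only cells, against 75% of all tested genes, and 4 of 6 in Runx1 c-k/o cells, against 74.3%. In Cre-only cells 2 members were called higher and 1 lower, where 38.6% and 36.4% of all genes were, and in Runx1 c-k/o cells 2 higher and 2 lower, against 37.7% and 36.6%. A gene was called where edgeR, fitted to all 12 samples with its quasi-likelihood model, gave an adjusted p (Benjamini-Hochberg, over all 13538 genes) under 0.05.

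The library totals ranged from 14442251 to 23641552 counts. Values below are normalized CPM, that is counts scaled to a common library size with TMM factors. They are relative to all counted poly(A) RNA, so fewer cells of a type and less RNA of a gene per cell cannot be told apart, and neither can a change in the total RNA of a cell. The targeted gene could not check the genotype labels, since the table gives Runx1 as a whole and not its deleted exon. Runx1 stood at 81.8 to 86.7 CPM in resting Cre-only cells and at 95.7 to 102.7 CPM in resting Runx1 c-k/o cells, and at 34.9 to 38.5 CPM against 47.3 to 74.5 CPM at 3 h (log2 fold change 0.80, SE 0.138, edgeR adjusted p = 0.00769). All 9 B cell markers examined were present, with summed levels of 9720 to 10697 CPM at rest and 5103 to 5882 CPM at 3 h. Summed markers of T cells, NK cells and neutrophils reached at most 14.2, 3.81 and 4.39 CPM in any sample. Those of macrophages or monocytes reached 696 CPM, of red cells 410 CPM and of plasma cells 439 CPM (165 to 401 CPM at rest and 286 to 439 CPM at 3 h).

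A pair of Runx1 c-k/o libraries stood apart from their replicates: resting replicate 2 and 3-h replicate 1. In these the median deviation from the group mean of the 3794 tested genes with at least 5000 bp of exon was lower than that of the 2337 genes under 1500 bp, by 0.27 and 0.40 on the log2 scale. In the other 10 libraries the same difference (long minus short) lay between -0.02 and 0.30. All 6 members have more than 5000 bp of exon, from 5.11 kb in Dnmt3b to 16.6 kb in Dnmt3a. Replicate 1 at 3 h was the lowest of its group in 6 of 6 members, and resting replicate 2 in 5 of 6. Results that rest on them are therefore also given without them, an alternative added after the data were seen. Without both, 0 members were called by genotype at either time and 5 of 6 on activation in Runx1 c-k/o cells, with Tet3 added.

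**Figure D1:**
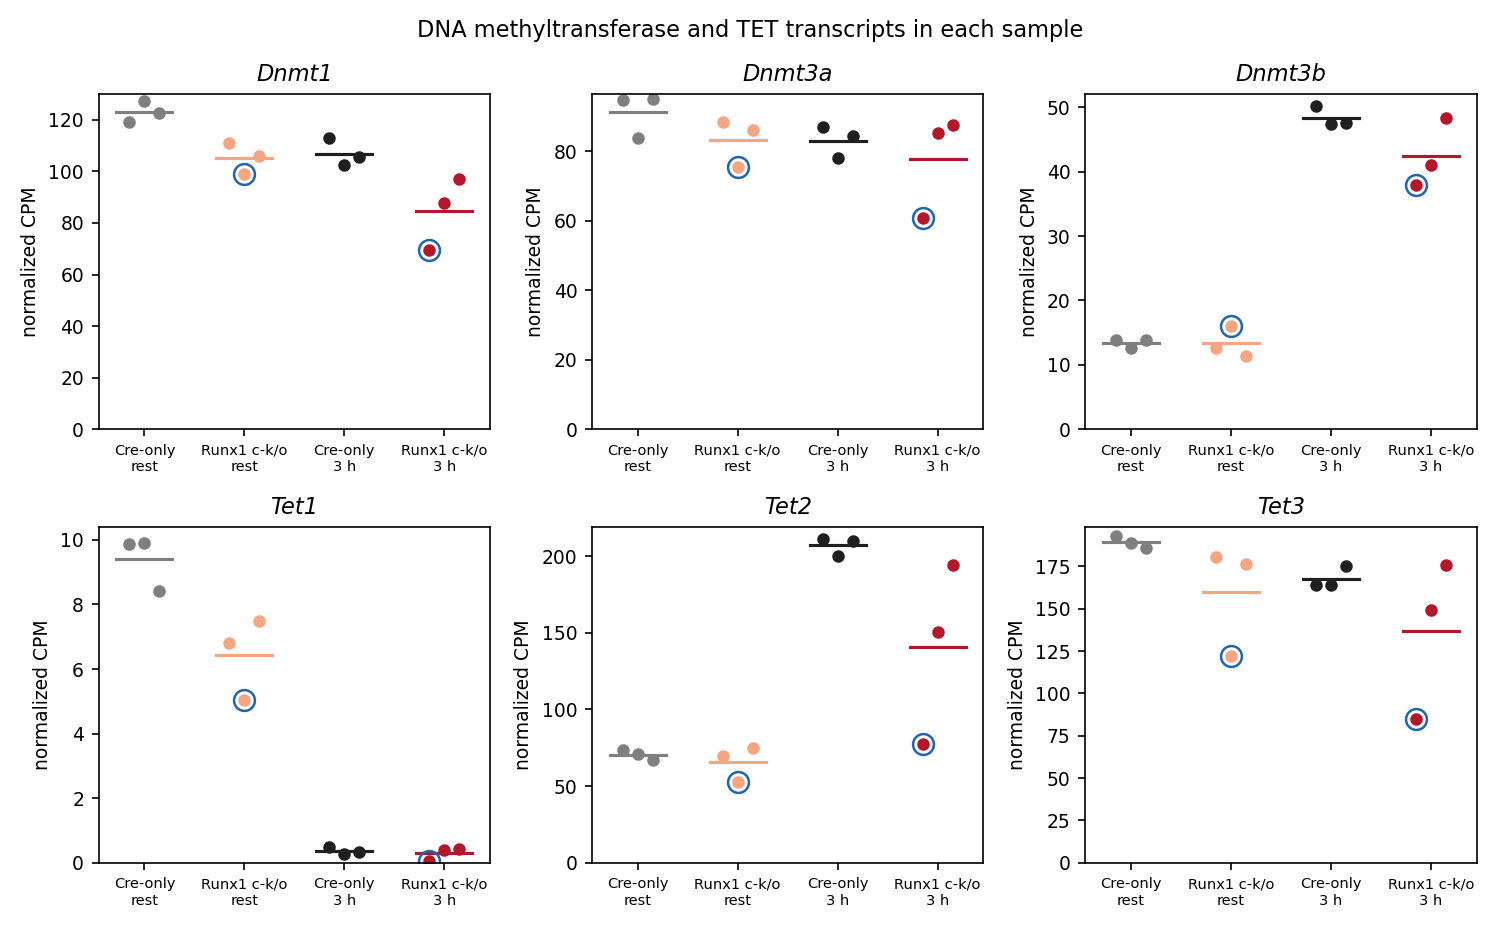
Normalized CPM (y axis, from 0) of each member in each of the 12 samples, grouped by genotype and time, with a line at the mean of 3 samples. Blue rings mark the 2 Runx1 c-k/o libraries that stood apart. Dnmt3b and Tet2 are higher and Tet1 is lower at 3 h in every sample of both genotypes, and the ringed sample at 3 h is the lowest of its group in every panel.

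Per length, the maintenance enzyme and Tet3 led at rest. Levels between genes were compared as RPKM, here normalized CPM per kilobase of merged exon. In resting Cre-only cells Dnmt1 stood at 23.4 ± 0.77 RPKM (SD, n = 3), Tet3 at 17.1 ± 0.306, Tet2 at 7.66 ± 0.365, Dnmt3a at 5.48 ± 0.375, Dnmt3b at 2.63 ± 0.14 and Tet1 at 0.639 ± 0.057. No neighbours in that order overlapped in their 3 samples. At 3 h the order in Cre-only cells was Tet2 at 22.5 ± 0.662 RPKM, Dnmt1 at 20.3 ± 1.01, Tet3 at 15.1 ± 0.589, Dnmt3b at 9.47 ± 0.311, Dnmt3a at 4.99 ± 0.275 and Tet1 at 0.024 ± 0.008. Per length, Tet2 thus moved from below Tet3 and Dnmt1 to the first place, and Dnmt3b from below Dnmt3a to above it. The change of Dnmt3b against Dnmt3a rests on the merged exon lengths, 5.11 kb and 16.6 kb. In CPM Dnmt3b stayed below Dnmt3a at 3 h in Cre-only cells (47.4 to 50.2 against 77.9 to 86.8 CPM). In Runx1 c-k/o cells the order at rest was the same and again without overlap between neighbours. At 3 h in those cells Dnmt1 (13.2 to 18.4 RPKM), Tet2 (8.43 to 21.1 RPKM) and Tet3 (7.68 to 15.9 RPKM) overlapped in their ranges, as did Dnmt3b (7.44 to 9.46 RPKM) with Tet3. Within each of these 3 samples Dnmt1 and Tet2 lay above Tet3 and Tet3 above Dnmt3b, while Dnmt1 lay above Tet2 in replicates 1 and 2 and below it in replicate 3.

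The 3 members that were called on activation in both genotypes are shown with their promoters. All 6 members had RefSeq promoter entries in GRCm38.p6, each of 300 bases from 250 before to 50 after a transcription start, written along the gene's strand. The sequences are in lower case with CG dinucleotides in capitals, the sites on which these enzymes act. They are from chr2:153649199-153649498 (plus strand) for Dnmt3b, chr10:62887275-62887574 (minus strand) for Tet1 and chr3:133544341-133544640 (minus strand) for Tet2.
Dnmt3b: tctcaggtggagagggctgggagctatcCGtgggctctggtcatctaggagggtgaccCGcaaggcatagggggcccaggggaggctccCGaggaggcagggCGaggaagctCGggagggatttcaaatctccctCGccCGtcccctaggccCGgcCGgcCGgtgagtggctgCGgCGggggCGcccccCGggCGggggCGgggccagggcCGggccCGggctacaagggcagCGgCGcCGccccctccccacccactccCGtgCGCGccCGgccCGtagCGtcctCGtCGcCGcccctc
Tet1: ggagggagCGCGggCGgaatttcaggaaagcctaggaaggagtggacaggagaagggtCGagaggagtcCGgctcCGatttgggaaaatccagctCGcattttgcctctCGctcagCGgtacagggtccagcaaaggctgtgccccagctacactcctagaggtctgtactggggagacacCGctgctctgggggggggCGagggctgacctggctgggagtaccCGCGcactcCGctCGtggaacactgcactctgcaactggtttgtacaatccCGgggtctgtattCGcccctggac
Tet2: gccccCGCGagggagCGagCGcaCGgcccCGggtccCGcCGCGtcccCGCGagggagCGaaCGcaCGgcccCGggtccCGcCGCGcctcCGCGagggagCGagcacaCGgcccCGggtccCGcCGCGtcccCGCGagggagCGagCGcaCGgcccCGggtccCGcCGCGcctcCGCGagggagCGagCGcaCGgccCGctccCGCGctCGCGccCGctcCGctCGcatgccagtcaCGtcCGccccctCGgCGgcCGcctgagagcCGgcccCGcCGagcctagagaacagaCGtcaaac
The Tet2 promoter held 57 CG dinucleotides, more than 99.8% of the 32851 promoters of that length. The Dnmt3b promoter held 30 and the Tet1 promoter 17, against a median of 7 over all promoters. Tet3 held 22, the 3 entries of Dnmt1 held 33, 12 and 2, and those of Dnmt3a 46, 47 and 18. The core letters that RUNX factors bind, TGTGGT or TGCGGT on either strand, were found in 0 of the 10 windows of the 6 members and in 22.4% of all promoters. The letters GCGGGGGCG, a motif of the EGR factors looked for after the Dnmt3b sequence was read, occurred at 2 places in the Dnmt3b window, on its own strand and starting 75 and 58 bases before the start. That motif is in 2.91% of all promoters (either strand) and in no other window of the members. The Dnmt3b window holds 76.0% G and C, against a median of 52.7% over all promoters. The share of 2.91% therefore does not measure how rare the motif is in windows of such composition. The same limit holds for the RUNX share of 22.4%, as the 10 windows held 51.3% to 82.3% G and C. The first and second entries of Dnmt3a also overlap, and sites farther from the start were not searched.

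Dnmt3b, a de novo enzyme, rose in every activated sample. The gene lies on chromosome 2 from 153475186 to 153513466 (mm9, plus strand). Resting Cre-only samples measured 13.8, 12.6 and 13.8 CPM and those at 3 h 50.2, 47.4 and 47.5 CPM. Resting Runx1 c-k/o samples measured 12.7, 15.96 and 11.4 CPM and those at 3 h 38.0, 41.0 and 48.3 CPM. The lowest activated sample of either genotype lay above the highest resting sample by a wide margin (84.4% of tested genes did not overlap on activation in Cre-only cells and 72.8% in Runx1 c-k/o cells), whereas the genotypes overlapped at both times. The rise was 1.85 on the log2 scale in Cre-only cells (SE 0.129, edgeR adjusted p = 9.80e-08) and 1.67 in Runx1 c-k/o cells (SE 0.129, edgeR adjusted p = 2.69e-07). Of the 13538 genes, 987 rose more in Cre-only cells. Between genotypes Dnmt3b differed by -0.01 at rest (95% interval -0.29 to 0.28) and by -0.19 at 3 h (-0.45 to 0.08), with edgeR adjusted p of 0.987 and 0.441.

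The other de novo enzyme, Dnmt3a, did not pass a test in any comparison, though with a factor of unwanted variation its activation change turned positive and was called (0.40 in Cre-only cells in edgeR). Fitted with only the 2 groups compared, it was called in the opposite direction in Cre-only cells (-0.20, edgeR adjusted p = 0.00613). It lies on chromosome 12 from 3806007 to 3914443 (mm9, plus strand), and an exon of Gm10485 overlaps it on the opposite strand, so that its count is uncertain to the extent that the counting did not use strand. Resting Cre-only samples measured 94.6, 83.9 and 94.9 CPM and those at 3 h 86.8, 77.9 and 84.3 CPM. Runx1 c-k/o samples measured 88.4, 75.4 and 86.2 CPM at rest and 60.8, 85.3 and 87.5 CPM at 3 h. The groups overlapped in all 4 comparisons. The log2 fold change on activation was -0.13 in Cre-only cells (95% interval -0.41 to 0.14, edgeR adjusted p = 0.355) and -0.10 in Runx1 c-k/o cells (-0.38 to 0.18, adjusted p = 0.502). By genotype it was -0.13 at rest (-0.41 to 0.15) and -0.09 at 3 h (-0.37 to 0.19), and the last turned to 0.08 without 3-h replicate 1 of the Runx1 c-k/o cells.

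The maintenance enzyme Dnmt1 was lower in every Runx1 c-k/o sample than in the Cre-only samples of the same time, without passing the test. It lies on chromosome 9 from 20711650 to 20757317 (mm9, minus strand). At rest the Cre-only samples measured 119.3, 127.3 and 122.5 CPM and the Runx1 c-k/o samples 110.9, 98.96 and 105.8 CPM. At 3 h the Cre-only samples measured 112.8, 102.4 and 105.6 CPM and the Runx1 c-k/o samples 69.4, 87.9 and 96.9 CPM. Groups without overlap are common in these data: 23.7% of all tested genes at rest and 21.8% at 3 h. The log2 fold change by genotype was -0.23 at rest (95% interval -0.46 to 0.01, edgeR adjusted p = 0.489) and -0.34 at 3 h (-0.57 to -0.10, edgeR adjusted p = 0.154). Without 3-h replicate 1 of the Runx1 c-k/o cells the difference at 3 h was -0.19 (edgeR adjusted p = 0.373), and without replicate 3 it was -0.44 and passed (edgeR adjusted p = 0.0427).

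On activation Dnmt1 fell by 0.31 on the log2 scale in Runx1 c-k/o cells (SE 0.110, edgeR adjusted p = 0.0215) and differed by -0.20 in Cre-only cells (SE 0.109, edgeR adjusted p = 0.111), with groups that did not overlap in either genotype, as for 72.8% and 84.4% of tested genes. In Cre-only cells Dnmt1 was called under 4 of 15 alternatives, each time as lower at 3 h. The call in Runx1 c-k/o cells was kept in 10 of 16 alternatives. It was lost with a replicate block within each genotype (adjusted p = 0.0509), with only the 2 groups compared (-0.33, adjusted p = 0.0852) and without resting replicate 1 (edgeR adjusted p = 0.0744) or replicate 3 (0.0527) of these cells, and with a factor of unwanted variation the value turned to 0.10 in edgeR and 0.04 in DESeq2. Markers of dividing cells were examined by genotype as well. Of 10 mitotic genes tested, 2 were called lower with the deletion at rest, where 1.49% of all tested genes were called: Bub1 (-0.78) and Top2a (-0.57). At 3 h 4 were called lower, where 2.77% of all tested genes were called: Mki67 (-1.03), Ccnb2 (-0.87), Bub1 (-0.76) and Top2a (-0.58). These 6 calls lay near the threshold and were kept under 3 to 11 of 15 alternatives, fewest for Bub1 at 3 h. The summed level of the 10 genes was 170 to 216 CPM in resting Cre-only cells and 117 to 133 CPM in resting Runx1 c-k/o cells, and 115 to 144 CPM against 70.2 to 87.5 CPM at 3 h. Of 13 DNA replication genes 0 were called by genotype, with summed levels that overlapped (549 to 575 against 506 to 590 CPM at rest). The part of dividing cells in the Dnmt1 values was not tested.

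**Figure D2:**
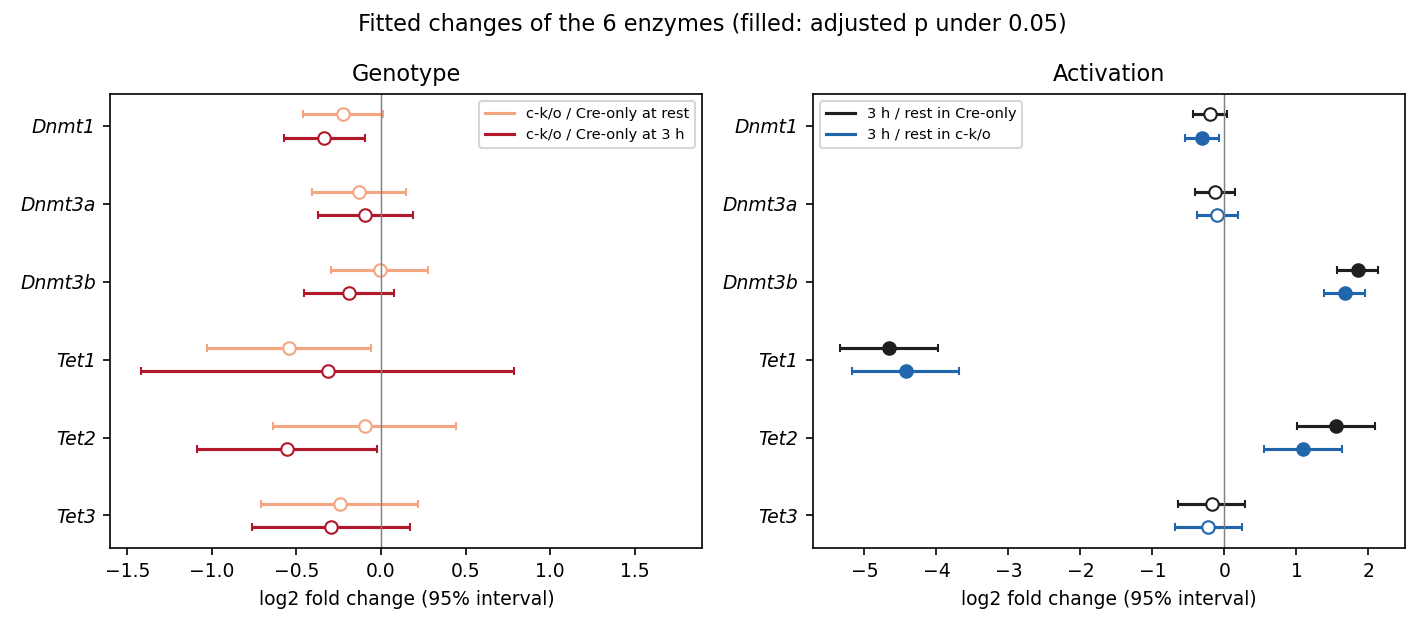
Fitted log2 fold change (x axis) of each member with its 95% interval, by genotype on the left and on activation on the right. Filled points have an adjusted p under 0.05 in edgeR. All 12 genotype values lie below 0 with open points, and on activation Dnmt3b and Tet2 lie above 0 and Tet1 near -4.66 and -4.43.

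Tet1, the smallest of the TET transcripts in these cells, was nearly lost within 3 h. It lies on chromosome 10 from 62267318 to 62361866 (mm9, minus strand). Resting Cre-only samples held 205, 174 and 136 counts (9.88, 9.91 and 8.43 CPM) and those at 3 h 11, 4 and 5 counts (0.47, 0.26 and 0.32 CPM). Resting Runx1 c-k/o samples held 116, 78 and 113 counts (6.79, 5.04 and 7.499 CPM) and those at 3 h 1, 6 and 7 counts (0.06, 0.39 and 0.41 CPM). Every resting sample lay far above every activated sample, and the activated samples of the 2 genotypes overlapped. The fold between 515 resting and 20 activated counts in Cre-only cells, scaled for library size, was 25.6 (95% exact interval 16.4 to 42.3, counting error only), and between 307 and 14 counts in Runx1 c-k/o cells it was 22.0 (12.9 to 40.7). The fitted fall was 4.66 on the log2 scale (SE 0.315, edgeR adjusted p = 7.95e-08) and 4.43 (SE 0.342, edgeR adjusted p = 2.64e-07), with 201 and 138 genes falling more. Tet1 was tested because its resting samples passed the filter, which limits what these adjusted p can show.

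Some of the marker lists fell on activation as well. Among all tested genes 36.4% were called lower in Cre-only cells and 36.6% in Runx1 c-k/o cells. Of 8 macrophage or monocyte markers 7 were tested, and all 7 fell in both genotypes, with summed levels of 322 to 696 CPM at rest and 20.8 to 71.9 CPM at 3 h, and Csf1r, the receptor that defines these cells, went from a mean of 185 to 6.75 CPM in Cre-only cells. Among 9 B cell markers 7 fell and 1 rose in each genotype, and 3 of 4 dendritic cell markers and 3 of 3 platelet markers fell. In each genotype 0 of 4 red cell and 0 of 2 tested neutrophil markers were called. Of 3 tested T cell markers 1 rose and 1 fell, and of 4 tested plasma cell markers 1 rose and 2 fell. Of 3 tested NK cell markers 2 fell in Cre-only cells and 1 in Runx1 c-k/o cells. No marker in the lists of other cells was at 0 in every sample, and Ly6g, of neutrophils, was the only one with at most 3 counts in each. The part of other cells in the Tet1 values was not tested.

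At rest the Tet1 samples of the genotypes did not overlap either, with Runx1 c-k/o cells lower, an order shared by 11.6% of tested genes. The log2 fold change was -0.55 (SE 0.222, 95% interval -1.03 to -0.06, edgeR adjusted p = 0.375), and it was called in 0 of 14 alternatives. Without both Runx1 c-k/o libraries that stood apart it was -0.40 (edgeR adjusted p = 0.223). At 3 h the counts were too few to resolve a difference: the interval of the log2 fold change ran from -1.42 to 0.79.

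Tet2, which together with Tet3 makes up most of the TET transcripts in these cells, rose in both genotypes. It lies on chromosome 3 from 133126643 to 133207354 (mm9, minus strand). Resting Cre-only samples measured 73.8, 70.7 and 67.1 CPM and those at 3 h 211, 199.96 and 210 CPM. Resting Runx1 c-k/o samples measured 69.7, 52.9 and 75.1 CPM and those at 3 h 77.6, 151 and 194 CPM. The activated samples lay above the resting samples in each genotype, by a narrow margin in the Runx1 c-k/o replicate 1 that stood apart. The rise was 1.55 on the log2 scale in Cre-only cells (SE 0.250, edgeR adjusted p = 1.10e-04) and 1.10 in Runx1 c-k/o cells (SE 0.249, edgeR adjusted p = 0.00158). In Cre-only cells 1443 genes rose more.

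The 3 activated Runx1 c-k/o samples lay below all 3 activated Cre-only samples in Tet2, an order that 12.3% of tested genes share. The log2 fold change at 3 h was -0.56 (SE 0.244, 95% interval -1.09 to -0.02), with an edgeR adjusted p of 0.290. It was -0.24 without 3-h replicate 1 of the Runx1 c-k/o cells (edgeR adjusted p = 0.544). The difference between the 2 rises was itself tested as the interaction, and was -0.46 (95% interval -1.21 to 0.30, edgeR adjusted p = 0.999), or -0.13 without that library. For no member was the interaction called, against 0.0813% of tested genes (11 of 13538). With DESeq2 and a factor of unwanted variation the Tet2 interaction was -0.43 (adjusted p = 0.0551), the lowest adjusted p of its 21 alternatives.

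Tet3, whose transcript led the TET genes at rest, did not pass a test in any comparison, and it too turned positive on activation and was called with a factor of unwanted variation (0.88 in Cre-only cells in edgeR). Fitted with only the 2 groups compared, it was called lower in Cre-only cells (-0.24, edgeR adjusted p = 7.62e-05). It lies on chromosome 6 from 83312367 to 83391672 (mm9, minus strand). Resting Cre-only samples measured 193, 189 and 186 CPM and those at 3 h 164, 164 and 175 CPM, lower than each resting sample. In that comparison 84.4% of tested genes did not overlap. Resting Runx1 c-k/o samples measured 181, 122 and 176 CPM and those at 3 h 85.2, 149 and 176 CPM, which overlapped. On activation the log2 fold change was -0.17 in Cre-only cells (95% interval -0.64 to 0.29, edgeR adjusted p = 0.474) and -0.22 in Runx1 c-k/o cells (-0.69 to 0.25, edgeR adjusted p = 0.363). By genotype it was -0.25 at rest (-0.71 to 0.22) and -0.29 at 3 h (-0.76 to 0.17). The samples did not overlap at rest, with Runx1 c-k/o cells lower, an order shared by 11.6% of tested genes. Without both libraries that stood apart the values by genotype were -0.08 and -0.02. Without both libraries that stood apart Tet3 was also called lower on activation in Runx1 c-k/o cells (-0.16, edgeR adjusted p = 0.0426).

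All 6 members had a negative log2 fold change by genotype at both times, with medians of -0.18 and -0.30. This shared sign did not hold in every fit: without both libraries that stood apart Tet2 at rest was 0.04 and Dnmt3a and Tet1 at 3 h were 0.078 and 0.15, and with a factor of unwanted variation Tet2 at rest (0.13 in edgeR) and Dnmt3a at 3 h (0.023) were positive as well. Among all tested genes 44.4% and 48.9% were negative, with medians of 0.03 and 0.01. Genes with at least 5000 bp of exon, the length of the members, had medians of -0.06 and -0.13, and those under 1500 bp medians of 0.15 and 0.17. Of the genes with at least 5000 bp, 36.9% were positive at rest and 28.7% at 3 h, against 55.6% and 51.0% of all tested genes. Summed red cell markers lay mostly higher in Runx1 c-k/o cells with overlap at both times, at 36.1 to 253 CPM in Cre-only and 246 to 410 CPM in Runx1 c-k/o cells at rest and 12.3 to 136 against 115 to 203 CPM at 3 h, with 0 of 4 called. The part of exon length and of red cells in the members' values was not tested.

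Shares within a sample do not depend on the library size. Tet2 made up 30.2% ± 0.59 (SD, n = 3) of the summed RPKM of the TET genes in resting Cre-only cells and 59.7% ± 0.913 at 3 h. In Runx1 c-k/o cells its share went from 32.7% ± 1.32 to 54.7% ± 2.38. The ratio of Tet2 to Tet3 went from 0.45 to 1.49 in Cre-only cells and from 0.50 to 1.21 in Runx1 c-k/o cells. At rest the ratio was higher in every Runx1 c-k/o sample (0.465 to 0.521 against 0.434 to 0.461), and at 3 h it was lower in every one (1.10 to 1.33 against 1.44 to 1.55). An exact two-sided permutation test gave p = 0.1 for each of these 4 comparisons, the smallest that 3 against 3 samples allow, and these shares were examined after the levels were known. Dnmt3b went from 8.35% ± 0.504 to 27.3% ± 0.448 of the summed methyltransferase RPKM in Cre-only cells and from 9.51% ± 2.01 to 28.7% ± 1.87 in Runx1 c-k/o cells, with genotypes that overlapped at both times. Its ratio to Dnmt3a went from 0.48 to 1.901 in Cre-only cells and from 0.53 to 1.801 in Runx1 c-k/o cells. The size of these shares and ratios depends on the merged exon lengths, and in CPM Dnmt3b lay below Dnmt3a in every sample.

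**Figure D3:**
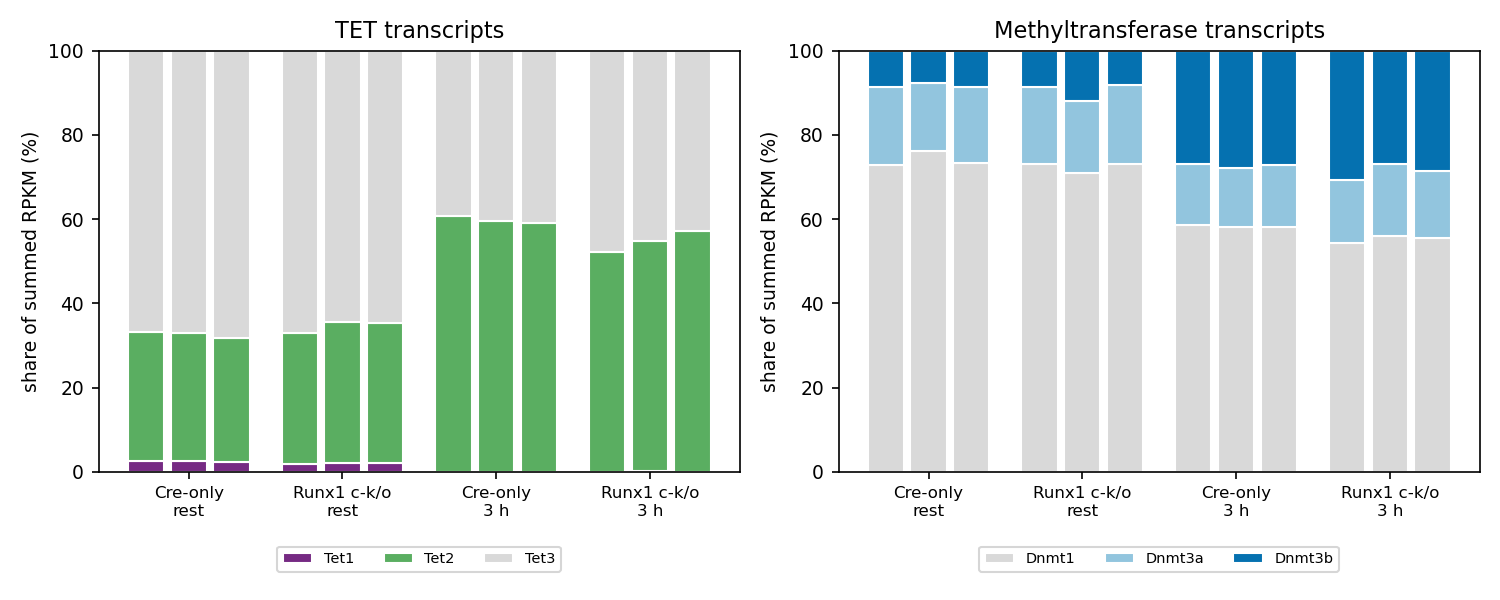
Share (y axis, percent) of each TET gene in the summed RPKM of Tet1, Tet2 and Tet3 (left) and of each methyltransferase gene in that of Dnmt1, Dnmt3a and Dnmt3b (right), with 1 bar per sample in 4 groups of 3. Tet2 fills 29.6% to 33.6% of the resting bars and 52.3% to 60.8% of the 3-h bars, and Dnmt3b 7.78% to 11.8% and 26.9% to 30.6%.

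The direction of 3 members on activation depended on the model. The study's methods used factors of unwanted variation, which are estimated from differences between replicates and added to the fit. With 1 such factor (RUVs over all tested genes) Tet3 turned from -0.17 to 0.88 in edgeR and to 0.77 in DESeq2 in Cre-only cells, with adjusted p of 1e-05 and 5.32e-11, and Dnmt3a from -0.13 to 0.40 and 0.29 (adjusted p of 0.00573 and 0.0305). In Runx1 c-k/o cells Tet3 turned from -0.22 to 0.84 and 0.78, and Dnmt3a from -0.10 to 0.45 and 0.38. Dnmt1 turned from -0.20 to 0.21 and 0.10 in Cre-only cells and was not called. Tet2 moved from 1.55 to 2.74 and 2.63 in Cre-only cells, Tet1 from -4.66 to -3.58 and -3.63, and Dnmt3b stayed at 1.88 and 1.75.

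The factor itself differed between the times. Scaled to an SD of 1 over the 12 samples, it lay at -1.07 to -0.99 in resting Cre-only samples and at 0.60 to 0.68 at 3 h. In Runx1 c-k/o cells it lay near -1.01 in resting replicates 1 and 3 and at -0.02 in resting replicate 2, and at 0.63 and 0.58 in 3-h replicates 2 and 3 and 1.97 in replicate 1. Factor and activation thus overlapped in these samples, and with the factor the median activation change of all genes with at least 5000 bp of exon went from -0.06 to 0.30 in Cre-only cells, and that of genes under 1500 bp from -0.06 to -0.38. Without the factor, and with every other alternative run, Tet3 and Dnmt3a were not higher at 3 h in Cre-only cells. The rises of Dnmt3b and Tet2 and the fall of Tet1 were called under every alternative in which they could be tested.

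**Figure D4:**
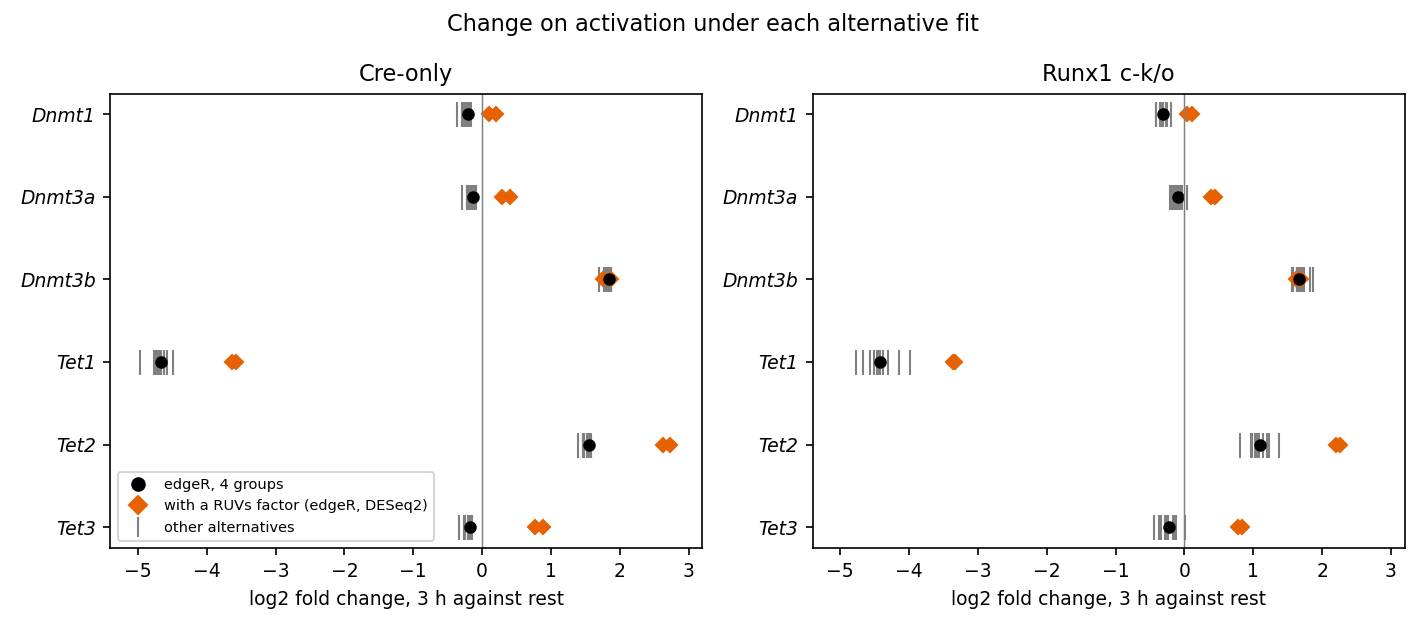
Log2 fold change on activation (x axis) of each member in Cre-only (left) and Runx1 c-k/o cells (right) in the 4-group edgeR fit (black), with 1 factor of unwanted variation in edgeR and DESeq2 (orange) and under the other alternatives (grey). The orange points of Dnmt3a and Tet3 lie above 0 and the black points below it, while Dnmt3b, Tet1 and Tet2 stay on the same side of 0.

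The partners of these enzymes were examined as 6 lists of 44 genes, 40 of which were tested. By genotype 0 of the 40 were called at rest and 0 at 3 h. On activation 33 were called in Cre-only cells, 18 higher and 15 lower, and 33 in Runx1 c-k/o cells, 17 higher and 16 lower. These are 33 of 40 in a comparison where 75% of all genes were called, and the lists are described below by what their genes did in Cre-only cells.

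Among 7 maintenance partners 4 rose and 2 fell. Cdca7, a cofactor of the chromatin remodeler HELLS, rose by 3.09 on the log2 scale, the deubiquitinase gene Usp7 by 0.98 and the sliding clamp Pcna by 0.87, while the DNA ligase gene Lig1 fell by 0.47. Uhrf2 fell by 0.41 in Runx1 c-k/o cells, a direction that turned with the factor of unwanted variation. With that factor the call of Pcna was lost as well (0.20 in edgeR and 0.09 in DESeq2). Uhrf1, which brings DNMT1 to replicated DNA, measured 29.7, 30.2 and 25.0 CPM in resting Cre-only samples and 19.3, 21.1 and 21.2 CPM in resting Runx1 c-k/o samples. At 3 h it measured 36.6, 32.6 and 29.2 against 24.5, 22.8 and 25.5 CPM. Its Runx1 c-k/o samples lay below all Cre-only samples at both times. That order was shared by 11.6% of tested genes at rest and 12.3% at 3 h. The log2 fold changes of -0.47 (SE 0.109, edgeR adjusted p = 0.0666) and -0.44 (SE 0.108, edgeR adjusted p = 0.0557) missed the threshold. Uhrf1 was called in 5 and 4 of 15 alternatives.

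The S-adenosylmethionine cycle, which supplies the methyl donor, had 3 of 4 genes higher: Mat2a, which makes the donor, by 2.32, Ahcy, which clears its by-product, by 1.99 and Mtr, the methionine synthase, by 0.60, while the regulatory subunit gene Mat2b fell by 0.23, a call kept under 10 of 15 alternatives. Of 4 tested relatives and recruiters of the de novo enzymes, Trim28 rose by 1.31 and the histone methyltransferase gene Setd2 fell by 1.04, with -0.16 and no call in edgeR with the factor. Among the 5 tested TET partners and genes of 2-oxoglutarate supply 1 rose and 4 fell. Ogt, whose product binds TET proteins, rose by 0.80, and Cxxc5, a CXXC zinc finger gene, fell by 3.08, D2hgdh, which clears the D form of 2-hydroxyglutarate, by 2.21 and Idh2, which makes 2-oxoglutarate in mitochondria, by 0.70. In Runx1 c-k/o cells Idh1, which makes it in the cytosol, was among the 4 genes with the largest change and fell by 1.23.

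In the base excision list 6 of 11 tested genes rose and 4 fell. Apex1, the endonuclease that cuts at sites without a base, rose by 2.63, the uracil glycosylase gene Ung by 2.58 and the ligase gene Lig3 by 1.95, and the glycosylase gene Neil1 fell by 3.31. Mbd4, a glycosylase that acts on mismatches at CG sites, fell by 2.08 in Runx1 c-k/o cells. Tdg, which acts on the products of the TET enzymes, rose by 1.08 in Cre-only cells and by 1.13 in Runx1 c-k/o cells. It measured 60.3, 59.7 and 62.6 CPM in resting Cre-only samples and 48.3, 47.3 and 46.1 CPM in resting Runx1 c-k/o samples, and at 3 h 130, 131 and 125 against 106, 85.96 and 117 CPM. Its Runx1 c-k/o samples too lay below all Cre-only samples, as for 11.6% of tested genes at rest and 12.3% at 3 h. The log2 fold changes of -0.37 at rest (SE 0.101, edgeR adjusted p = 0.132) and -0.32 at 3 h (SE 0.0995, edgeR adjusted p = 0.130) did not pass the test. Tdg was called in 5 and 3 of 15 alternatives. The last list held 9 genes, readers of methylated CG sites and relatives of such readers, and 3 rose and 3 fell. Zbtb38 rose by 2.45 and Mbd3 by 1.03 (0.22 in edgeR with the factor, and not called). Zbtb4 fell by 1.795 and Mbd5 by 1.59. Whether each binds methylated sites was not examined.

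**Figure D5:**
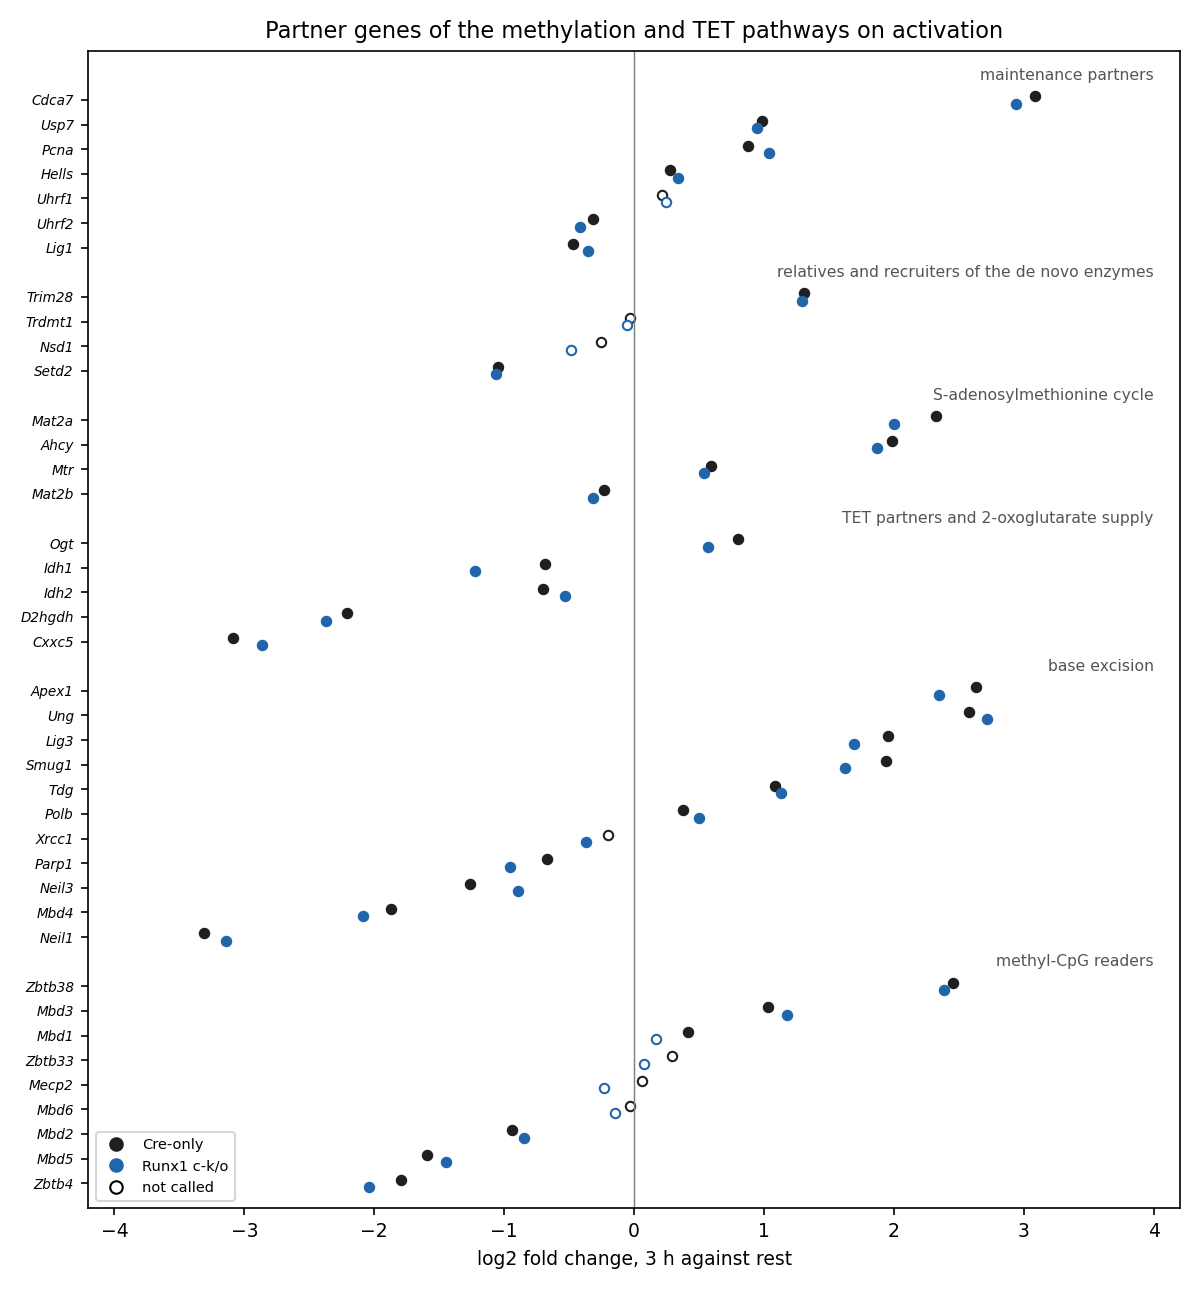
Log2 fold change at 3 h against rest (x axis) of the 40 tested partner genes, by list, with black points for Cre-only cells, blue points for Runx1 c-k/o cells and filled points for an adjusted p under 0.05 in edgeR. The lists are split in direction: 18 genes are called higher and 15 lower in Cre-only cells, from Cdca7 at 3.09 to Neil1 at -3.31.

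The genes whose pattern over the 12 samples was nearest to each member were found by the root mean square difference of log2 CPM centred on each gene's mean. Dnmt3b was nearest to Eif4g1 (0.077), Smarcc1 (0.081) and Usp36 (0.087), which all rose in both genotypes. Tet2 was nearest to Spen (0.123), Rasal2 (0.148) and Heg1 (0.153), with log2 fold changes by genotype at 3 h of -0.58, -0.46 and -0.57. Tet1 was nearest to Lrrc16a (0.242), 9930111J21Rik2 (0.296) and Ahnak (0.297). For Dnmt1 the nearest were Ubn1 (0.057), Trappc8 (0.059) and Msn (0.061), for Dnmt3a Eps15l1 (0.062), Mcm3ap (0.062) and Ccdc66 (0.075), and for Tet3 Trip11 (0.056), Ap4e1 (0.060) and 9930021J03Rik (0.067). Within the 6 members Dnmt1 and Dnmt3a were closest (0.135) and Dnmt3b and Tet1 farthest apart (3.04). The points share libraries, and these distances are a description with no test. As the genes were picked by likeness over these samples, their like fold changes follow from the choice and are no separate evidence.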

How the data were processed

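RNA of 12 samples was sequenced after poly(A) selection and stranded library preparation with ERCC spike-ins. According to the submitters' notes and methods, the authors base-called with CASAVA 1.8.4, aligned to mm9 (NCBIM37) with TopHat2 2.0.11 and deposited raw featureCounts counts per Ensembl gene, with no normalization and no pooling of replicates; the strand setting is not given in the sources used here. The table holds no spike-in rows, so values are relative to all counted RNA. Totals of 14442251 to 23641552 counts set a floor of 3 counts at 0.127 to 0.208 CPM. The exact intervals of the pooled Tet1 counts and the floors cover counting error only, as no molecular identifiers were read. The intervals of the log2 fold changes come from the quasi-likelihood fit and include the spread between samples.

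Groups follow the sample labels. Genes were kept by filterByExpr with a minimum of 10 counts, scaled by TMM and fitted with the robust quasi-likelihood model of edgeR 4.0.16 (R 4.3.3), with 1 term per group, Benjamini-Hochberg adjustment over 13538 genes and a threshold of 0.05. Exon lengths and positions are from the GENCODE M1 annotation of mm9, promoters from RefSeq (GRCm38.p6). Alternatives were DESeq2 size factors, other filters, DESeq2 1.42.0, 1 RUVs factor, replicate blocks, only the 2 groups compared and each sample left out. On data simulated for activation in Cre-only cells, edgeR called 98 of 100 genes changed by 2 on the log2 scale, 75 of 98 changed by 1 and 3 of 12913 unchanged genes. The simulation changed few genes, gave every gene the same spread beyond counting error and held no library that stood apart. These rates may therefore not hold for the measured data. Deviations from group means correlated by 0.28, 0.18 and 0.14 between resting and 3-h Cre-only samples with the same replicate number. Between those with different numbers the correlations were -0.19 to 0.005. No source states a pairing, these few correlations cannot decide it, and the main fit used none.

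Named genes were the 6 members, Uhrf1 and Tdg in each comparison, Runx1, up to 4 called genes per role list and comparison with the largest change, and the 3 genes nearest to each member. The members, lists and rules were chosen with earlier results of these data known, and 1 listed partner gene is not reported here. Tables were made with Python 3.11.15 and pandas 2.3.3.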

Additional observations from a re-analysis of the deposited data

How the results depend on the processing

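The rises of Dnmt3b and Tet2 and the fall of Tet1 on activation kept their direction and their call under every alternative that could be run, with log2 fold changes of 1.69 to 1.88, 1.40 to 2.74 and -4.98 to -3.58 in Cre-only cells and of 1.57 to 1.86, 0.80 to 2.27 and -4.77 to -3.34 in Runx1 c-k/o cells. Tet1 could not be fitted with at least 10 counts in every sample or, for genotype at 3 h, with only the 2 groups compared. Tet1 at 3 h is limited by depth: its 6 samples held 1 to 11 counts.

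Counts of called genes moved more. By genotype at rest (202) they were 378 with DESeq2, 498 and 589 with 1 RUVs factor in edgeR and DESeq2, 598 without the 2 libraries that stood apart and 81 to 140 with 1 sample left out. At 3 h (375) they were 707, 858, 1004, 914 and 180 to 617 in the same order, and 158 with only the 2 groups compared. For the interaction (11) they were 79, 155, 284, 187 and 4 to 31, and 4 with a replicate block within genotype. Members called by genotype at 3 h were 0, and 1 and 2 with the RUVs factor in edgeR (Dnmt1) and DESeq2 (Dnmt1 and Tet2), and 0 to 1 with 1 sample left out. On activation in Cre-only cells 3 were called, 5 with the factor in either tool and 6 with only the 2 groups compared, where Dnmt1, Dnmt3a and Tet3 were lower. Partner genes called by genotype at rest were 0, and 1 with at least 10 counts in every sample or only the 2 groups, 2 with DESeq2, 3 with the factor in either tool and 4 without the 2 libraries. At 3 h they were 0, and 1 with DESeq2, 2 with the factor in either tool, 2 without the 2 libraries and 0 to 2 with 1 sample left out.

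With the factor (edgeR, then DESeq2) activation turned to 0.21 and 0.10 for Dnmt1, 0.40 and 0.29 for Dnmt3a and 0.88 and 0.77 for Tet3 in Cre-only cells. With the deletion they turned to 0.10 and 0.042, 0.45 and 0.38, and 0.84 and 0.78, and Uhrf2 to 0.11 and 0.043. By genotype Dnmt3a at 3 h turned to 0.023 and 0.059 and Tet2 at rest to 0.13 and 0.12. Beyond the overlap of factor and activation given above, the cause was not tested. Without the 2 libraries the values were 0.078 for Dnmt3a by genotype at 3 h, 0.04 for Tet2 at rest, 0.15 for Tet1 at 3 h and 0.057 for the Dnmt3b interaction (-0.28 to -0.03 with 1 sample left out). Dnmt3b by genotype at rest, near 0, was 0.0090 with no filter and -0.16 to 0.093 with 1 sample left out. Values that turned with 1 sample left out were called under none of them: Dnmt3a was -0.19 to 0.079 by genotype at 3 h and -0.18 to 0.037 on activation in Runx1 c-k/o cells, Tet3 -0.44 to 0.0073 there, Tet2 -0.20 to 0.036 by genotype at rest, Tet1 -0.67 to 0.15 at 3 h and its interaction -0.12 to 0.71.

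In Runx1 c-k/o cells the correlations of deviations between samples with the same replicate number were -0.25, -0.26 and 0.25. The largest between any resting and 3-h sample, 0.48, joined the 2 libraries that stood apart, so these values cannot decide pairing either. A block shared by all groups left the Dnmt1 fall in Runx1 c-k/o cells called (edgeR adjusted p = 0.0326), a block within genotype did not (0.0509), and no other call of a member changed with either.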
